A study of Arabidopsis thaliana with 2 samples.

Results

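The salicylic acid defence pathway was followed through 10 of its genes in leaf RNA of Arabidopsis thaliana (thale cress), out of 27336 loci counted. They were taken by locus and comprised the effector genes PR1, PR2 and PR5, the synthesis and export genes ICS1 and EDS5, and the signalling genes EDS1, PAD4, SAG101, NPR1 and ACD6. Both genotypes were of the Columbia ecotype. The wild type was compared with the line atpip1;2-1, which carries a mutation in the gene for the plasma membrane aquaporin PIP1;2, a membrane channel. Each genotype was 1 library of cDNA from transcript 3' ends, made from leaves of 10 plants at 3 weeks of age grown on soil with 12 h of light a day. No treatment or pathogen was given in the labels, and the comparison asks how leaf transcripts differ in a plant deficient in this aquaporin.

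Salicylic acid is a plant hormone of defence against pathogens that feed on living tissue. In Arabidopsis most of the hormone induced by infection is made from chorismate, with isochorismate synthase (ICS1) acting in the chloroplast and EDS5 exporting the product. EDS1 pairs with PAD4 or with SAG101 to carry signals from intracellular immune receptors, NPR1 is a salicylic acid receptor and transcriptional coactivator that works with TGA factors, and the secreted PR proteins are the usual markers of an active response.

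The wild-type library held 4079098 reads and the mutant library 4041759. The mutated gene PIP1;2 (AT2G45960) had 4211 wild-type and 566 mutant reads, a log2 ratio of -2.95 (95% interval -3.08 to -2.83). The 4 leaf markers (RBCS1A, RBCS3B, LHCB1.3 and CA1) summed to 65746 CPM for the wild type and 57634 CPM for the mutant, where CPM is the read count per 1000000 reads of the scaled library size. Their log2 ratios were unlike, at -0.37 for RBCS1A, -0.16 for RBCS3B, -0.01 for LHCB1.3 and -0.41 for CA1. The 3 root markers had 1 read in each library, the 3 flower markers 2 and 0 reads, and the 3 seed markers 0 and 0. Where no read was counted, the 95% Poisson interval of the level reached 0.927 CPM for the wild-type library and 0.891 CPM for the mutant library. With 1 library per genotype no difference has a replicate check, and the intervals (95%) cover only counting error. Bulk leaf RNA does not tell fewer cells of a type from less RNA per cell.

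All 10 pathway genes had at least 20 reads over both libraries and were tested. A gene is called higher or lower where its reads differed by an exact binomial test, adjusted over all 15111 loci tested, and by at least 2-fold. That test compares these 2 libraries and not the genotypes. By it 1 of the 10 genes, EDS5, was called higher and 0 were called lower, where 1.3% of all tested loci were called higher, 1.1% lower and 2.4% in either direction (197 and 166 loci, or 252 and 118 with total counts and 667 and 46 with reference genes setting the library sizes). At any fold, the interval of the log2 ratio excluded 0 for 4 of the 10 genes, against 23.5% of all tested loci. These were PR2, EDS5 and ACD6 above 0 and PR1 below it. This count moved with the library sizes: it was 5 of the 10 with median-of-ratios factors (23.5% of all loci), 6 with total counts and with totals without organelle and abundant loci (24.1% in both), and 7 with reference genes (34.3%). The shares of all loci are not matched on read number, on which the width of a counting interval depends. Of the 10 genes 1 had 20 to 99 reads, as did 6368 of the 15111 loci tested. The median log2 ratio of the 10 genes was 0.14, beside -0.00 for all tested loci, and 7 of the 10 were positive, beside 49.8% of all tested loci. With total counts as library sizes 9 of the 10 were positive, beside 57.5% of all loci, and with reference genes 9, beside 76.9%.

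**Figure D1:**
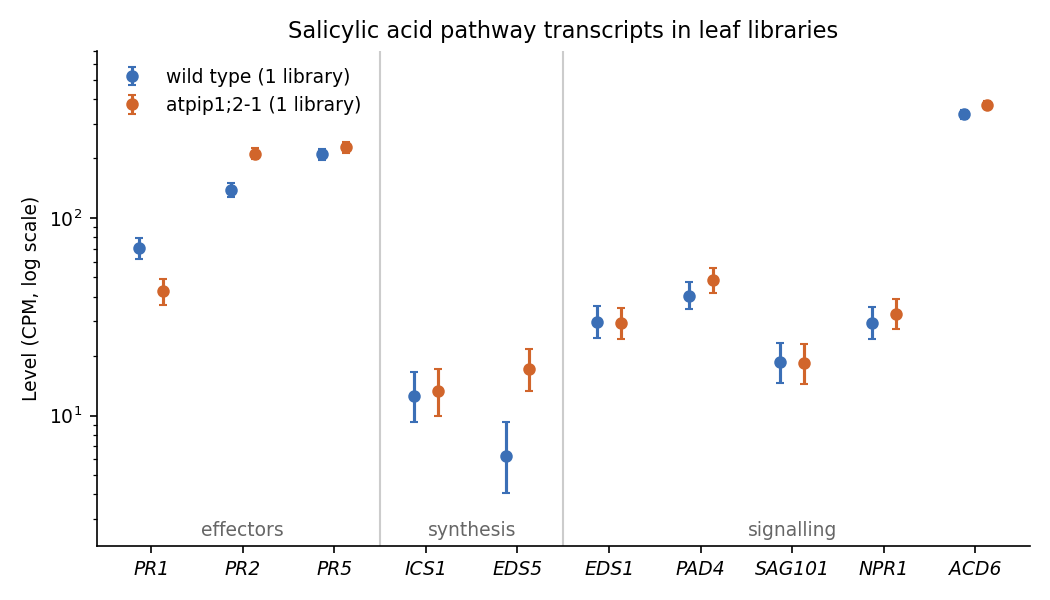
Level of the 10 pathway genes in CPM (vertical log axis) in the wild-type library (blue) and the atpip1;2-1 library (orange), 1 library each, with bars for the 95% Poisson counting interval. PR1 was lower and PR2 higher in the mutant library, while PR5 was at 209 and 228 CPM. EDS5 was at 6.28 and 17.1 CPM. The intervals of the libraries overlapped for PR5, ICS1, EDS1, PAD4, SAG101 and NPR1 and not for PR1, PR2, EDS5 and ACD6.

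The effector genes, all commonly used as readouts of salicylic acid signalling, had ratios on both sides of 0. PR1 (AT2G14610), a small secreted protein of the CAP family, had 279 wild-type and 176 mutant reads. Its level was 70.1 CPM (62.1 to 78.8) against 42.5 CPM (36.5 to 49.3). The log2 ratio was -0.72 (-1.0 to -0.44), so the mutant library held 60.6% of the wild-type level. The 2 counting intervals of the level did not overlap, but the difference stayed under 2-fold and PR1 was not called.

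PR2 (AT3G57260), a beta-1,3-glucanase that cuts fungal cell wall polymers, had 551 and 876 reads. Its level was 138 CPM (127 to 150) in the wild type and 212 CPM (198 to 226) in the mutant, a 1.53-fold higher level and a log2 ratio of 0.61 (0.46 to 0.77). The intervals of the level did not overlap here either, with the mutant above the wild type, and PR2 was not called. PR5 (AT1G75040), a thaumatin-like protein, had 833 and 943 reads. Its level was 209 CPM (195 to 224) against 228 CPM (213 to 243), and its log2 ratio of 0.12 had an interval from -0.01 to 0.26. Under the 4 other library sizes this interval lay above 0, with a lower bound from 0.0026 (median-of-ratios factors) to 0.29 (reference genes), and PR5 was called in none of the 5.

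Ratios between genes within a library do not depend on how the libraries are scaled. There were 1.97 PR2 reads for each PR1 read in wild-type leaves and 4.98 in the mutant library, a change of the ratio of 1.33 on the log2 scale (1.01 to 1.66). PR5 reads per PR1 read went from 2.99 to 5.36 (0.84, 0.53 to 1.16), and PR2 reads per PR5 read from 0.661 to 0.929 (0.49, 0.28 to 0.70). The 3 effector genes therefore differed from each other by more than counting error in each of these 3 pairs. With a threshold of 1.5-fold in place of 2-fold, PR2 and EDS5 were called higher and PR1 was called lower, where 3.28% of all tested loci were called higher and 3.96% lower.

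PRB1 (AT2G14580), the basic relative of PR1, had 0 reads in both libraries. Of the glucanase genes related to PR2, BG3 (AT3G57240) had 73 and 83 reads (log2 ratio 0.13, -0.34 to 0.60) and BG1 (AT3G57270) had 0 and 1. TLP-3 (AT1G75030), a thaumatin-like gene next to PR5 in locus order, was called lower with 31 wild-type and 13 mutant reads (-1.31, -2.37 to -0.33). That call was lost under each of the 4 other library sizes tried, with log2 ratios from -1.29 to -1.01. The neighbour on the other side of PR5, AT1G75050, had 2 wild-type and 1 mutant reads.

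In synthesis and export, the gene of the committed enzyme and that of the exporter differed in their ratios. ICS1 (AT1G74710), which converts chorismate to isochorismate, had 50 wild-type and 55 mutant reads. Its level was 12.6 CPM (9.32 to 16.6) against 13.3 CPM (10.0 to 17.3), with a log2 ratio of 0.08 (-0.50 to 0.66) whose interval included 0. The second isochorismate synthase gene, ICS2, had 2 reads in each library.

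EDS5 (AT4G39030), a transporter of the multidrug and toxin extrusion family in the chloroplast envelope, had 25 wild-type and 71 mutant reads. The level was 6.28 CPM (4.06 to 9.27) and 17.1 CPM (13.4 to 21.6), a 2.73-fold higher level and a log2 ratio of 1.45 (0.77 to 2.17). Among all tested loci, 0.655% had a log2 ratio at or above that of EDS5. Reads of EDS5 per ICS1 read went from 0.5 to 1.29, a change of 1.37 on the log2 scale (0.45 to 2.30). EDS5H (AT2G21340), a relative of EDS5, had 175 and 181 reads (-0.01, -0.32 to 0.30). At this depth the 96 EDS5 reads in both libraries together are the smallest count among the 10 genes.

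The 3' end of EDS5, where reads of these libraries are expected to lie, overlaps another gene. In the RefSeq annotation of the TAIR10.1 assembly, AT4G39040, annotated as a CRM family member, runs on the opposite strand and meets EDS5 tail to tail. Their longest transcripts share 213 bases, all in the 3' untranslated regions of both, which is 65.3% of the 326 bases of EDS5 after its stop codon. Of 265 windows of 36 bases in the last 300 bases of the EDS5 transcript, 178 (67.2%) also occur in AT4G39040 on the other strand. The sources used here do not say whether counting used strand, so reads of this stretch cannot be assigned to either gene from the counts alone.

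AT4G39040 had 272 wild-type and 306 mutant reads, a log2 ratio of 0.11 (-0.13 to 0.35). The wild-type count of AT4G39040 was thus far above the 25 reads of EDS5. With the reads of both loci summed, 297 wild-type and 377 mutant reads, the log2 ratio was 0.29 (0.06 to 0.51). Most of the summed reads were those of AT4G39040, and a 2-fold sum would have taken 618 mutant reads, so the sum is no test of the EDS5 difference. The part of this overlap in the EDS5 difference was not tested.

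**Figure D2:**
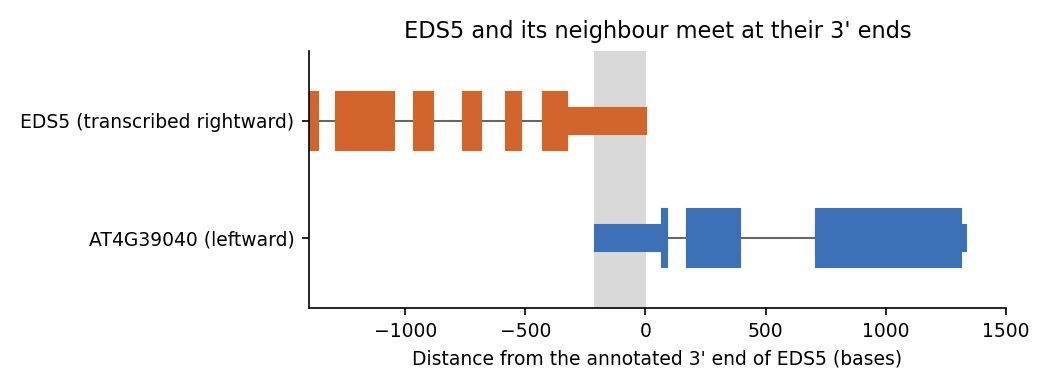
Map of the longest RefSeq transcripts (TAIR10.1) of EDS5 and AT4G39040 against the distance in bases from the annotated 3' end of EDS5. Tall boxes are coding sequence, low boxes are untranslated exon sequence and lines are introns; the grey band marks the 213 bases shared by both transcripts, which lie outside either coding sequence. The upstream exons of EDS5 extend beyond the left edge.

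Of the lipase-like signalling genes, EDS1 and SAG101 had ratios close to 0. EDS1 (AT3G48090), the shared partner of both signalling pairs, had 119 wild-type and 122 mutant reads. Its level was 29.9 CPM (24.8 to 35.8) against 29.5 CPM (24.5 to 35.2), with a log2 ratio of -0.02 (-0.40 to 0.36). SAG101 (AT5G14930), the partner of EDS1 in the nucleus, had 74 and 76 reads, or 18.6 CPM (14.6 to 23.3) against 18.4 CPM (14.5 to 23.0). Its log2 ratio was also -0.02 (-0.50 to 0.46). Both signs turned positive under other library sizes (0.049 and 0.052 with total counts), so neither gene has a direction.

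PAD4 (AT3G52430), which pairs with EDS1 in basal resistance, had 161 and 200 reads. Its level was 40.4 CPM (34.4 to 47.2) against 48.3 CPM (41.8 to 55.5), with a log2 ratio of 0.26 (-0.05 to 0.56) that was not called. The interval lay above 0 with total counts (0.02 to 0.63), totals without organelle and abundant loci (0.02 to 0.64) and reference genes (0.25 to 0.86), again without a call. PAD4 reads per EDS1 read were 1.35 for the wild type and 1.64 for the mutant, and SAG101 reads per EDS1 read were 0.622 and 0.623. The intervals of both changes included 0 (-0.21 to 0.77 and -0.62 to 0.62 on the log2 scale), as did that of PAD4 against SAG101 (-0.30 to 0.85). These intervals do not show that the genes acted alike, since they allow changes of over 1.5-fold.

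EDS1 has a tandem copy in the Columbia genome, AT3G48080. Of 262 windows of 36 bases in the last 300 bases of the EDS1 transcript, 50 (19.1%) occur in that copy, so part of the EDS1 reads could have been counted at either locus. AT3G48080 had 31 and 29 reads (-0.15, -0.94 to 0.63). The sum of both copies was 150 and 151 reads, with a log2 ratio of -0.05 (-0.38 to 0.29).

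NPR1 (AT1G64280), the salicylic acid receptor and coactivator, had 117 wild-type and 136 mutant reads. Its level was 29.4 CPM (24.3 to 35.2) and 32.8 CPM (27.6 to 38.8), giving a log2 ratio of 0.16 (-0.21 to 0.53) that was not called. With reference genes its interval lay above 0 (0.09 to 0.83), also without a call. NPR1 overlaps 2 genes on the opposite strand in RefSeq (the pseudogene AT1G64270 and the noncoding AT1G08667), which are not analysed here, and 1.13% of the windows at its 3' end occur in AT1G64270. ACD6 (AT4G14400), an ankyrin-repeat membrane protein that promotes salicylic acid dependent defence, had the most reads of the 10 genes, with 1328 and 1542. Its level was 334 CPM (316 to 352) against 372 CPM (354 to 391), and its log2 ratio of 0.16 (0.05 to 0.27) excluded 0 by counting error without reaching 2-fold. AT4G14390, next to ACD6 in locus order, had 8 and 6 reads.

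**Figure D3:**
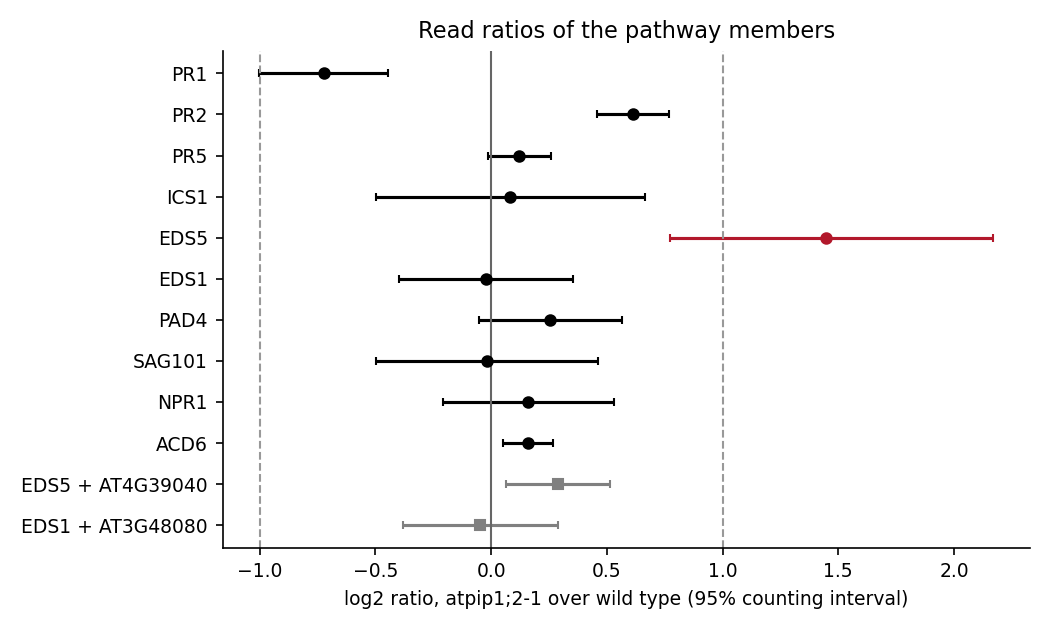
log2 ratio of the atpip1;2-1 library over the wild-type library (horizontal axis) for the 10 genes (circles) and for 2 sums of loci (grey squares), with 95% Clopper-Pearson counting intervals. Dashed lines mark 2-fold. EDS5 (red) is the called gene at 1.45, and the sum of EDS5 and its overlapping neighbour lies at 0.29; PR1 at -0.72 and PR2 at 0.61 lie on opposite sides of 0.

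The spread of ratios over all loci in broad ranges of read number gives a rough scale for these values, since no replicate does. Each range is wide, so its bounds also reflect loci with fewer reads than the gene set beside them. The spread also holds any differences between the plants. Among the 6368 loci with 20 to 99 reads over both libraries, the middle 95% of log2 ratios ran from -1.16 to 1.15, and EDS5, the pathway gene in this range, lay above it. Among the 7676 loci with at least 100 and under 1000 reads it ran from -0.77 to 0.79, which held PR1, ICS1, EDS1, PAD4, SAG101 and NPR1. Among the 1067 loci with at least 1000 reads it ran from -0.84 to 0.62, which held PR2, PR5 and ACD6. PR2 and PR1 lay close to these bounds, PR2 at 0.612 beside 0.615 and PR1 at -0.722 beside -0.767. The median of the loci with at least 1000 reads was -0.14. Of all tested loci, whatever their read number, 5.75% had a log2 ratio at or below that of PR1 and 8.20% had one at or above that of PR2. These shares include the loci with few reads, whose ratios spread more widely.

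**Figure D4:**
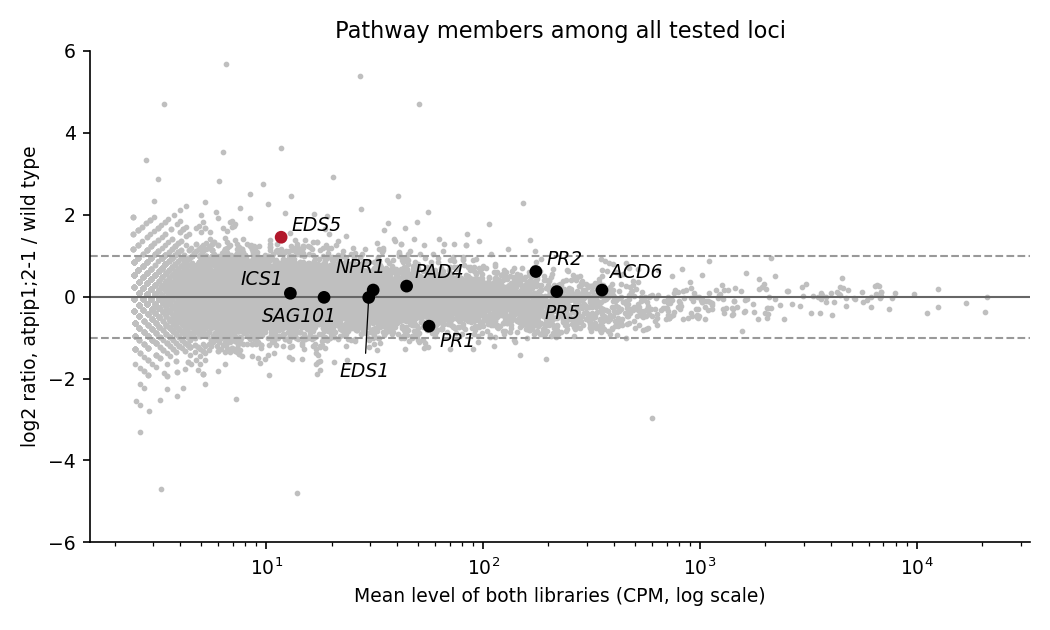
log2 ratio of the mutant library over the wild-type library (vertical axis) against the mean level of both libraries in CPM (horizontal log axis) for the tested loci with reads in both libraries (grey). The 10 pathway genes are labelled (black, EDS5 red) and dashed lines mark 2-fold. PR1 and PR2 lie within the cloud of loci of like level, toward its lower and upper sides, and EDS5 at 1.45 lies near its upper edge.

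Divided by the length of the longest RefSeq transcript, levels could be set in order. Reads of 3' end libraries need not scale with length, so the order is a description. In the wild type PR5 came first with 191 CPM per kb, followed by ACD6 with 103, PR2 with 93.7 and PR1 with 77.7. PAD4 (17.9), EDS1 (11.7), NPR1 (11.2), SAG101 (8.93), ICS1 (5.92) and EDS5 (2.78 CPM per kb) followed. In the mutant library PR5 was again first with 208 CPM per kb, PR2 with 143 stood above ACD6 with 115, and PR1 came next with 47.1. EDS5 with 7.58 CPM per kb stood above ICS1 with 6.26 there. EDS1 and NPR1 were neighbours in the CPM per kb order of both libraries, with counting intervals of their CPM that overlapped in each library.

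The 10 genes lie on 5 chromosomes, with PR5, ICS1 and NPR1 on chromosome 1, PR1 on 2, PR2, EDS1 and PAD4 on 3, EDS5 and ACD6 on 4 and SAG101 on 5. The core of the W-box bound by WRKY factors, TTGAC, was found on either strand in 7 of the 10 windows from 250 bases before to 50 after the annotated gene start, where 50.5% of 27444 protein-coding genes held it. PR1, PR2, PR5, EDS1, PAD4 and SAG101 had 1 match each and EDS5 had 2. The core of TGA factor sites, TGACG, was in 0 of the 10 windows, where 23.1% of all genes held it. Sequence further upstream was not searched, so these counts do not show that a gene lacks either motif. The motifs share the letters TGAC.

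Another 54 genes of the pathway were examined in 6 lists, which were chosen with earlier results of these data known. The counts and medians of the lists are therefore a description and no independent support. Of the 54 genes, 40 had at least 20 reads. Of these 40, 1 was called higher and 0 were called lower, beside 1.3% and 1.1% of all tested loci. The median log2 ratio was 0.29 and 27 were positive, which is 67.5% beside 49.8% of all tested loci. With total counts 30 were positive (75.0% beside 57.5%) and with reference genes 34 (85.0% beside 76.9%). At any fold, 11 had an interval above 0 and 3 below, where 10.3% of all tested loci lay above and 13.2% below. Those shares of all loci are not matched on read number. The called gene was ADR1 (AT1G33560), a helper immune receptor that acts with EDS1 and PAD4, with 13 wild-type and 44 mutant reads. Its level was 3.27 CPM (1.74 to 5.58) and 10.6 CPM (7.72 to 14.3), giving a log2 ratio of 1.70 (0.78 to 2.72).

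In immune receptor signalling 7 of 8 tested genes were positive and the median was 0.44. The helper receptor ADR1-L1, a relative of ADR1, had 183 and 236 reads (0.31, 0.03 to 0.60), and ADR1-L2 had 137 and 196 (0.46, 0.14 to 0.79). NRG1.1 (AT5G66900), a helper receptor that acts with EDS1 and SAG101, had 36 and 62 reads (0.73, 0.11 to 1.36). The intervals of these 3 excluded 0 without a call. Those of NDR1 (0.36, -0.16 to 0.88), RAR1 (0.51, -0.20 to 1.24) and NRG1.2 (0.42, -0.25 to 1.11) included 0. With ADR1, 4 of the 8 intervals lay above 0 and 1 below, where 10.3% of all tested loci lay above and 13.2% below (not matched on read number). SGT1B, a co-chaperone of immune receptors, was the negative member with 257 and 219 reads (-0.29, -0.55 to -0.02).

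The other synthesis genes stood below 0 in 6 of 6 tested cases, with a median of -0.19 and 0 called. With median-of-ratios factors all 6 were also negative (median -0.17). PAL1 and PAL2, phenylalanine ammonia-lyases of the alternative route from phenylalanine, had 300 and 238 reads (-0.39, -0.64 to -0.14) and 368 and 333 reads (-0.20, -0.42 to 0.02). PBS3, which acts after ICS1 by joining isochorismate to glutamate, had 14 reads in each library (-0.06, -1.24 to 1.12). With total counts, and with totals without organelle and abundant loci, 4 of the 6 were negative, and with reference genes, which raise every log2 ratio by 0.30, 2 of the 6 were and the median was 0.11.

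Among the regulators of synthesis 5 of 5 tested genes were positive, with a median of 0.32 and 0 called. SARD4, an enzyme of pipecolic acid synthesis, had 99 and 129 reads (0.32, -0.06 to 0.72), and CAMTA3, a calmodulin-binding repressor of the pathway, had 72 and 112 (0.58, 0.14 to 1.03). The activators SARD1 and CBP60G, which bind the ICS1 promoter, had 68 and 71 reads (0.01, -0.50 to 0.51) and 31 and 49 reads (0.60, -0.07 to 1.3). Of the genes that modify salicylic acid, 3 of 7 were tested and 0 were called, with 2 positive and a median of 0.32. The intervals of 2 of the 3 lay above 0, where 10.3% of all tested loci did (not matched on read number). DMR6, a salicylic acid hydroxylase, had 345 and 447 reads (0.32, 0.11 to 0.52), and DLO1, a second such hydroxylase, had 100 and 103 (-0.01, -0.43 to 0.40).

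The NPR1 relatives and partners had 0 of 11 tested genes called, 7 positive and a median of 0.19. NIMIN3 (AT1G09415), which binds NPR1, had 77 and 118 reads (0.56, 0.13 to 0.99), and the bZIP factor TGA3 had 58 and 66 (0.13, -0.40 to 0.66). In the list of salicylic acid responsive genes 0 of 7 were called, 6 were positive and the median was 0.56. WRKY70, a transcription factor induced through NPR1, had 462 and 708 reads, or 116 and 171 CPM (0.56, 0.39 to 0.73). WAK1, a cell wall-associated receptor kinase, had 401 and 634 reads, or 101 and 153 CPM (0.60, 0.42 to 0.79). Both had intervals above 0 and stayed under 2-fold.

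Members of the responsive list also stood on both sides of 0. NUDT6, a Nudix hydrolase of the defence response, had 71 wild-type and 39 mutant reads (-0.92, -1.52 to -0.34) and was not called. WRKY38, a WRKY factor that depends on NPR1, had 1 and 12 reads (3.53, 0.77 to 8.95), under the minimum of 20 reads for a test. Its ratio rests on 1 wild-type read. The other untested gene of this list, WRKY62, had 1 and 4 reads (1.94, -1.39 to 7.57).

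**Figure D5:**
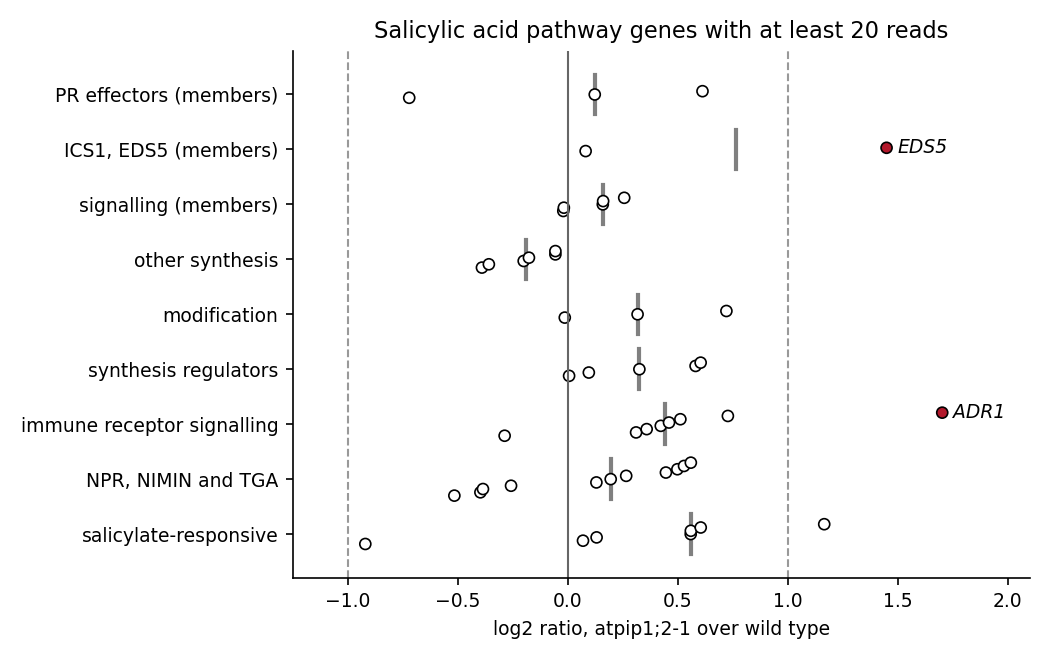
log2 ratio of the mutant library over the wild-type library for the 10 genes in 3 groups and the 40 other tested pathway genes in 6 lists; each circle is a gene, red circles are the called genes EDS5 and ADR1, grey bars are list medians and dashed lines mark 2-fold. With TMM library sizes the 6 other synthesis genes lie below 0 (4 do with total counts and 2 with reference genes), the 5 synthesis regulators above it, and the PR effectors on both sides.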

How the data were processed

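Deposited values were raw read counts per locus, 1 column per genotype per the file headers, on genome build TAIR9 per the submitters' processing notes. Libraries were made from transcript 3' ends, per the labels' protocols. Not given in the sources used here are the aligner, the counter, whether strand was used and how multiply matching reads were treated. A locus listed more than once with equal counts was kept once.

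Library sizes were scaled by TMM (edgeR 4.0.16, R 4.3.3; factors 0.976 and 1.02), and CPM refers to these sizes. No residual degrees of freedom exist, so the quasi-likelihood test could not be fitted. The test on reads was an exact binomial one, two-sided (2 times the smaller tail), with Benjamini-Hochberg adjustment over 15111 loci with at least 20 reads. A call needed an adjusted p under 0.05, a 95% Clopper-Pearson interval of the log2 ratio that excluded 0 and at least 2-fold. Levels carry exact Poisson intervals. Reads without molecular identifiers are not independent molecules. The rule was run on simulated counts with counting error only, which cannot show how it behaves with plant-to-plant spread.

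Names, lengths, overlaps and promoter windows came from RefSeq TAIR10.1, not the build of the counts, so no coordinates are printed; 26604 loci matched and 732 did not. Windows of 36 bases stand in for the read length, which is not given.

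The genes and lists were chosen with earlier results of these data known. Named genes were the 10 members, PIP1;2, relatives of members, every called list gene and the 2 with most reads per list. ADR1-L2, NRG1.1, PBS3, SARD1, CBP60G, NUDT6, WRKY38 and AT4G39040 were chosen after their values were seen. So were NDR1, RAR1, NRG1.2 and WRKY62, the ratios between members and the sum of EDS5 with AT4G39040. Other settings tried were library sizes from total counts, from the median-of-ratios method of DESeq2 1.42.0, from 11 reference genes and from totals without organelle loci and the 20 most abundant loci, and other read minimums, folds and tests. Python 3.11.15, numpy 2.4.6, scipy 1.17.1 and pandas 2.3.3 were used.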

Additional observations from a re-analysis of the deposited data

How the results depend on the processing

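No paired analysis was possible because each genotype had 1 library, and no library could be left out. Over 5 library sizes (the main one and 4 others) 8 of the 10 genes kept their sign. Each of the 4 others raised every log2 ratio, by 0.017 to 0.30, so the 7 genes positive under the main one could not change sign. EDS1 and SAG101, at -0.02 each, were positive with total counts (0.049 and 0.052), with totals without organelle and abundant loci (0.051 and 0.053) and with reference genes (0.28 and 0.28). The reference genes moved the median of all tested loci to 0.30 and that of the members to 0.44, with calls of 667 loci higher and 46 lower, and 3 other pathway genes higher; EF1A, the reference gene with the most reads, had a log2 ratio of -0.84. EDS5 was called under all 5 library sizes, of which the 4 others also raised its ratio. Summed with AT4G39040, whose reads make up most of the sum, it gave 0.29 and 0 members called higher, which does not test EDS5 (added after the data were seen). It was not called by the exact test of edgeR once a biological coefficient of variation of 0.2 or 0.4 was assumed (log2 ratio 1.45 in both, 0 members and 0 other pathway genes called higher). Over all loci that test called 111 higher and 77 lower with a coefficient of 0.1, 15 and 3 with 0.2, and 2 and 0 with 0.4. With at least 100 reads 97 loci were higher and 80 lower, and EDS5 and ADR1, having fewer reads, were not tested (0 members and 0 other pathway genes called). Without a minimum 2 other pathway genes were higher. With 1.5-fold 496 loci were higher and 599 lower, 2 members higher and 1 lower, and 2 other pathway genes higher and 1 lower. Plant-to-plant spread was not measured.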
